A study of Caenorhabditis elegans with 12 samples.

Results

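The vitellogenin genes of Caenorhabditis elegans, vit-1 to vit-6, encode the yolk proteins. They were found by WormBase gene ID in each count table, and all 6 were present among 46739 listed genes. The worms were whole late L4 animals raised at 20 °C, so intestine, germline, epidermis, muscle and neurons were sequenced together. The 12 libraries came from 4 genotypes, 3 for each. Controls were of the wild-type strain N2. Strain DA465, eat-2(ad465), carries a mutation in a nicotinic acetylcholine receptor subunit gene of the pharynx and feeds slowly. Strain DCL29, acs-20(tm3232), is mutant for a fatty acyl-CoA synthetase gene needed for the cuticle barrier. The double mutant eat-2(ad465); acs-20(tm3232) was strain DCL33. Each mutant genotype was a single strain, and the labels do not say whether the 3 libraries of a genotype were separate cultures, so p-values measure the spread between libraries only.

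Yolk proteins are large lipid-binding lipoproteins related to vertebrate vitellogenin and apolipoprotein B. In the hermaphrodite they are made by the intestine, secreted into the body cavity and taken up by growing oocytes through the receptor RME-2. Their genes are silent in young larvae and are switched on around the passage from the last larval stage to the adult, under GATA factors such as ELT-2 and several temporal and nutrient-sensing regulators.

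The 6 genes fall into 3 groups by product. The genes vit-1 and vit-2 encode closely related precursors of one large yolk polypeptide, vit-3, vit-4 and vit-5 encode those of the other, and vit-6 encodes a precursor that is cut into smaller polypeptides. The first 5 lie on the X chromosome and vit-6 on chromosome IV. In the Ensembl annotation they have 5 or 6 exons and 4870 to 5088 bases of exon, so their levels per length and per library can be set side by side almost directly. The genes vit-3 (WBGene00006927) and vit-4 (WBGene00006928) sit next to each other on one strand with 0 protein-coding genes between them. The gene vit-5 (WBGene00006929) lies on the opposite strand, 21 protein-coding genes from vit-4 and 22 from vit-3. The genes vit-1 (WBGene00006925) and vit-2 (WBGene00006926) are farther apart on X, with 438 protein-coding genes between them. As vit-3, vit-4 and vit-5 are near-identical and ambiguous placements were set apart in the counting, their single levels are uncertain, and changes are also given for their summed counts.

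Counts in genes ran from 7116623 to 12016769 per library, and reads set apart as not unique made up 5.21 to 9.99% of the reads listed. Transcripts of the eat-2 gene had 0 to 3 counts in every library, wild-type included, too few to check the labels. The acs-20 gene kept 678 to 1333 counts in every library, and its level in the acs-20 mutant differed from wild-type by log2 -0.15 (adjusted p = 0.658), so this deletion allele could not be checked from the gene total either. Intestine was present in all libraries: 15 intestine marker genes summed to 13059 to 14630 CPM (counts after scaling each library by its total and TMM factor) in wild-type, 12376 to 13412 in acs-20, 14562 to 18744 in eat-2 and 12886 to 14318 in the double mutant. The gene asp-1 held the largest part of these sums, at means of 8246.5 CPM in wild-type, 7450.5 in acs-20, 10569 in eat-2 and 8449.5 in the double mutant. The sums therefore mostly follow that gene. None of the 15 marker genes was without reads in any genotype.

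All 6 vitellogenin genes were transcribed in wild-type late L4 worms, and vit-6 and vit-2 dominated. Per length, wild-type levels were 720 ± 296 RPKM (counts per kilobase of exon, scaled to library size; SD, n = 3) for vit-6 and 468 ± 213 for vit-2. The other 4 genes followed at 82.1 ± 53.3 for vit-5, 60.6 ± 28.3 for vit-3, 46.3 ± 11.6 for vit-1 and 39.1 ± 20.6 for vit-4. The wild-type libraries of vit-6 and vit-2 overlapped, vit-2 stayed above the other 4 genes (at least 233 against at most 132), and those 4 overlapped among themselves. Within a library, vit-6 nevertheless stood above vit-2 per length in all 12 libraries, by 1.47 to 1.67 times in wild-type, 1.24 to 1.33 times in acs-20, 1.25 to 1.79 times in eat-2 and 1.04 to 1.501 times in the double mutant. Together the 6 genes took 0.681 ± 0.316% of the counts in genes in wild-type, 0.599 ± 0.456% in acs-20, 0.0295 ± 0.0126% in eat-2 and 0.0881 ± 0.0292% in the double mutant (SD, n = 3 each). In whole worms, fewer expressing cells and less RNA per cell cannot be told apart.

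The library values of each gene show the same 2 levels, a high one in wild-type and acs-20 and a low one in both genotypes that carry eat-2(ad465). For vit-1 the wild-type libraries held 248, 287 and 171 CPM and the acs-20 libraries 176, 315 and 228. The eat-2 libraries held 9.77, 7.91 and 5.37 CPM of vit-1 and the double mutant 13.5, 15.2 and 16.8. The wild-type and acs-20 ranges overlapped, while every eat-2 library lay below every double mutant library. This gene had the tightest libraries of the family, with the highest value of a genotype at most 1.82 times the lowest.

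The gene vit-2 stood at 2575, 3203 and 1149 CPM in wild-type and at 1279, 4240 and 1069 in acs-20. In eat-2 it was 180.2, 84.2 and 64.3 CPM, and in the double mutant 495, 384 and 221. Again the lowest double mutant library was above the highest eat-2 library. The highest of the acs-20 libraries, replicate 2, was above all wild-type libraries, and the remaining ones were within or just below the wild-type range.

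In the second product group the low genotypes held few counts. For vit-3, wild-type libraries held 328, 421 and 146 CPM, and acs-20 libraries 105, 263 and 118. The eat-2 libraries held 4.46, 1.51 and 1.60 CPM of vit-3, which were 37, 13 and 17 counts, and the double mutant 3.50, 2.71 and 2.62 CPM, which were 29, 29 and 32 counts. The low genotypes overlapped with each other for this gene.

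The neighbouring vit-4 read 205, 288 and 85.9 CPM in wild-type and 62.8, 182 and 74.7 in acs-20. In eat-2 it had 54, 7 and 7 counts (6.51, 0.814 and 0.659 CPM), and in the double mutant 4, 11 and 14 counts (0.483, 1.03 and 1.14 CPM). Replicate 1 of eat-2 was thus far above the other 2 libraries of its genotype, and counts this low limit the precision of any further comparison.

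For vit-5 the spread in wild-type and eat-2 was the widest of the family. Wild-type libraries held 429.97, 643 and 126 CPM and acs-20 libraries 245, 934 and 255, so the highest wild-type library was 5.09 times the lowest. The eat-2 libraries held 23.5, 1.63 and 1.13 CPM, from 195, 14 and 12 counts, and the double mutant 10.98, 11.7 and 7.52. Replicate 1 of eat-2 exceeded every double mutant library, and the other 2 were below them.

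The gene vit-6 read 4131, 4847 and 1968 CPM in wild-type and 1656, 5409 and 1458 in acs-20. It fell to 231, 155 and 116 CPM in eat-2 and stood at 554, 409.9 and 339.96 in the double mutant. As for vit-1 and vit-2, the ranges of eat-2 and of the double mutant did not overlap.

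**Figure D1:**
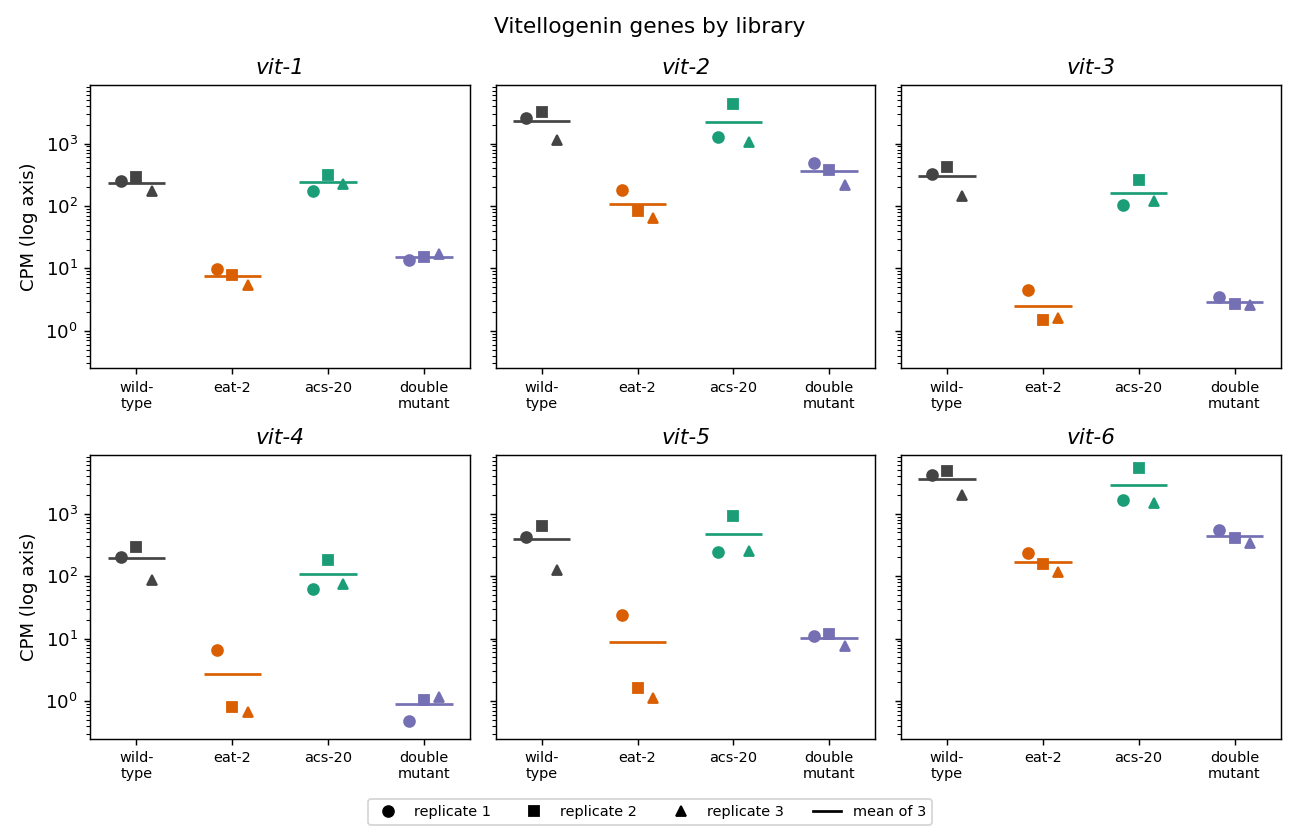
CPM of each vitellogenin gene (log axis) in the 12 libraries, by genotype; marker shapes show the replicate number and the line the mean of 3 libraries. In every panel the eat-2 and double mutant libraries lie below all wild-type and acs-20 libraries, as for vit-1 at 5.37 to 16.8 against 171 to 315 CPM.

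The libraries of a genotype moved together across the family. Wild-type replicate 2 was the highest and replicate 3 the lowest of their genotype for all 6 genes. Replicate 2 was the highest acs-20 library for all 6 genes, and replicate 1 the highest eat-2 library for all 6. No such order was shared among the double mutant libraries, in which replicate 1 was highest for vit-2, vit-3 and vit-6, replicate 2 for vit-5, and replicate 3 for vit-1 and vit-4. The genes of a library share its depth and its scaling.

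In eat-2 against wild-type, transcripts of all 6 genes fell, and no eat-2 library overlapped a wild-type library for any of them. Of 14390 tested genes, 3.54% were called lower and 7.67% were called in either direction, at a Benjamini-Hochberg adjusted p under 0.05 in edgeR's quasi-likelihood test. For 11.5% of the tested genes all eat-2 libraries lay below all wild-type libraries. The median of the family was log2 -5.25, beside a median of 0.04 over all tested genes. Among the genes of the first large polypeptide, vit-1 changed by log2 -4.95 (SE 0.294, adjusted p = 2.81e-06), a 30.9-fold fall, and vit-2 by -4.40 (SE 0.729, adjusted p = 0.0069).

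The genes of the other large polypeptide had the larger fitted falls, although no test compared the genes with each other. They were log2 -6.91 for vit-3 (SE 0.623, adjusted p = 0.000132), -6.25 for vit-4 (SE 0.845, adjusted p = 0.0024) and -5.55 for vit-5 (SE 1.16, adjusted p = 0.0201). Summed before the fit, vit-3 and vit-4 changed by -6.60 (adjusted p = 0.000814), and vit-3, vit-4 and vit-5 by -6.02 (adjusted p = 0.00789). The gene vit-6 changed by -4.45 (SE 0.621, adjusted p = 0.00284), a 21.8-fold fall. Ranked by fitted change from the lowest, the 6 genes took places 2 (vit-3), 4 (vit-4), 6 (vit-5), 9 (vit-1), 11 (vit-6) and 13 (vit-2) among all tested genes.

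The size of the change for vit-3, vit-4 and vit-5 moved by over 1.5 times with replicate 1 of eat-2. Without it the values were log2 -7.57 for vit-3, -8.02 for vit-4 and -8.19 for vit-5. The call of vit-5 was lost without wild-type replicate 1 (adjusted p = 0.0548), eat-2 replicate 2 (0.0709) or eat-2 replicate 3 (0.0628) in the same edgeR test.

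**Figure D2:**
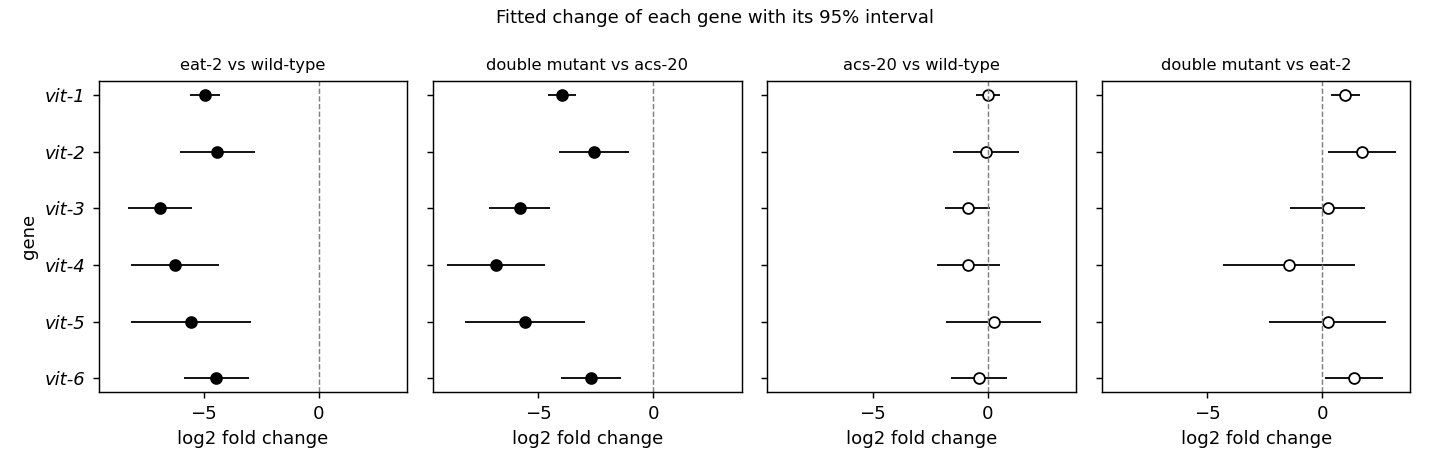
Fitted log2 fold change of each vitellogenin gene with its 95% interval, 1 panel per comparison. In eat-2 against wild-type the fitted values run from -6.91 for vit-3 to -4.40 for vit-2, and every interval lies below 0. Every interval in acs-20 against wild-type spans 0.

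The acs-20 mutation alone gave no called change in the family. All 6 genes had overlapping libraries in acs-20 and wild-type, and 0 of 6 were called, beside 2.21% of all tested genes. All acs-20 libraries lay below all wild-type libraries for 10.8% of tested genes. With DESeq2, which called 482 genes in all, 0 of the 6 were called too, and 0 of 6 had an unadjusted p under 0.05 in the edgeR test. The fitted values were log2 0.02 for vit-1 (95% interval -0.49 to 0.54), -0.07 for vit-2 (-1.49 to 1.35), -0.88 for vit-3 (-1.86 to 0.11), -0.85 for vit-4 (-2.22 to 0.52), 0.26 for vit-5 (-1.81 to 2.32) and -0.36 for vit-6 (-1.57 to 0.85). Differences inside these intervals were not detectable at this spread. Without acs-20 replicate 2 the values moved to log2 -0.98 for vit-2, -1.495 for vit-4, -0.69 for vit-5 and -1.23 for vit-6, still not called.

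All 6 genes were lower in the double mutant than in wild-type, with no overlap between libraries, beside 8.62% of tested genes called lower and 17.6% in either direction. All double mutant libraries lay below all wild-type libraries for 16.1% of the tested genes. The largest fitted falls were again in the second product group, log2 -7.69 for vit-4 (SE 0.945, adjusted p = 0.000761) and -6.68 for vit-3 (SE 0.606, adjusted p = 7.81e-05), with vit-5 at -5.32 (SE 1.14, adjusted p = 0.0121). The gene vit-1 changed by -3.95 (SE 0.274, adjusted p = 5.11e-06), vit-6 by -3.07 (SE 0.582, adjusted p = 0.00704) and vit-2 by -2.66 (SE 0.671, adjusted p = 0.025). The call of vit-2 was lost without wild-type replicate 1 or 2 or any single double mutant library, at adjusted p up to 0.0831. That of vit-5 was lost without double mutant replicate 1 (0.0509) or 2 (0.0525). The sum of vit-3 and vit-4 changed by -7.002 (adjusted p = 0.000377) and that of vit-3, vit-4 and vit-5 by -6.01 (adjusted p = 0.00414). This comparison shares its wild-type libraries with the other comparisons against wild-type.

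Loss of eat-2 was also read within acs-20 mutants, by setting the double mutant against acs-20. All 6 genes were lower with no overlap, beside 5.31% of tested genes called lower and 15.3% with all libraries lower. The fitted values were log2 -3.97 for vit-1 (SE 0.274, adjusted p = 9.5e-06), -2.58 for vit-2 (SE 0.669, adjusted p = 0.036), -5.80 for vit-3 (SE 0.593, adjusted p = 0.000316), -6.83 for vit-4 (SE 0.939, adjusted p = 0.00222), -5.58 for vit-5 (SE 1.15, adjusted p = 0.0145) and -2.71 for vit-6 (SE 0.573, adjusted p = 0.0163). Replicate 2 of acs-20, with the highest vitellogenin counts of its genotype, decided part of these values. Without it vit-2 stood at -1.70 (adjusted p = 0.0714), vit-4 at -6.21, vit-5 at -4.65 and vit-6 at -1.86. Without double mutant replicate 2 the count called fell from 6 to 3, with vit-2, vit-5 and vit-6 no longer called. Over all tested genes it fell from 1863 to 999. The call of vit-5 was lost without double mutant replicate 1 too (adjusted p = 0.0617), and that of vit-6 in an edgeR fit to the 6 compared libraries alone (0.0656). Summed before the fit, vit-3 and vit-4 changed by -6.13 (adjusted p = 0.00118) and vit-3, vit-4 and vit-5 by -5.75 (adjusted p = 0.00718).

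Between the single mutants, all 6 genes were lower in eat-2 than in acs-20, beside 3.92% of tested genes called lower and 13.5% with all libraries lower, and the values ran from log2 -4.09 for vit-6 to -6.03 for vit-3. All were called again when each library was left out in turn. Without eat-2 replicate 1, vit-3 moved to -6.69, vit-4 to -7.17 and vit-5 to -8.44. Without acs-20 replicate 2, vit-2 moved to -3.42, vit-4 to -4.75, vit-5 to -4.87 and vit-6 to -3.21.

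Whether the acs-20 mutation changed the family in worms that already carried eat-2(ad465) was read from the double mutant against eat-2. None of the 6 genes was called by edgeR, beside 2.11% of tested genes called in either direction and 1.36% called higher. The genes vit-1, vit-2 and vit-6 nevertheless had all double mutant libraries above all eat-2 libraries and an unadjusted p under 0.05, and 9.14% of tested genes had such a separation. Their fitted values were log2 1.00 for vit-1 (95% interval 0.38 to 1.62, adjusted p = 0.112), 1.74 for vit-2 (0.26 to 3.22, adjusted p = 0.283) and 1.38 for vit-6 (0.13 to 2.62, adjusted p = 0.319). With DESeq2, which called 542 genes in all against 304 in the main fit, vit-1 was called at 0.98 (adjusted p = 0.011). In an edgeR fit to these 6 libraries alone, vit-1 (adjusted p = 0.0409), vit-2 (0.0465) and vit-6 (0.0208) were called. That fit called 366 genes in all. The other 3 genes overlapped between the genotypes, at log2 0.24 for vit-3, -1.44 for vit-4 and 0.24 for vit-5.

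The test of the difference itself is the interaction, the effect of eat-2(ad465) in acs-20 mutants minus its effect with acs-20 intact. None of the 6 genes was called, beside 0.188% of tested genes, and none was called by DESeq2, which called 125 genes in all. The values were log2 0.98 for vit-1 (95% interval 0.17 to 1.79, adjusted p = 0.618), 1.82 for vit-2 (-0.22 to 3.86), 1.11 for vit-3 (-0.79 to 3.02), -0.59 for vit-4 (-3.75 to 2.58), -0.02 for vit-5 (-3.34 to 3.29) and 1.74 for vit-6 (0.0035 to 3.47, adjusted p = 0.68). Unadjusted p was under 0.05 for vit-1 (0.0222) and vit-6 (0.0496).

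The make-up of the vitellogenin counts also differed between high and low libraries. The genes vit-2 and vit-6 together supplied 83.1 to 85.5% of the family's counts in wild-type and 78.9 to 85.1% in acs-20, against 90.3 to 95.4% in eat-2 and 95.2 to 97.4% in the double mutant. The share of vit-3 was 4.17 ± 0.164% in wild-type, 3.00 ± 0.687% in acs-20, 0.809 ± 0.191% in eat-2 and 0.366 ± 0.0679% in the double mutant (SD, n = 3 each). That of vit-4 was 2.64 ± 0.314%, 1.91 ± 0.378%, 0.701 ± 0.631% and 0.121 ± 0.0749% in the same order. The share of vit-5 was 5.18 ± 1.60% in wild-type and 7.71 ± 0.676% in acs-20, against 2.14 ± 2.62% in eat-2, where replicate 1 alone reached 5.16%, and 1.24 ± 0.203% in the double mutant. The share of vit-6 was 52.1 ± 1.98% in wild-type, 46.7 ± 1.10% in acs-20, 58.0 ± 6.23% in eat-2 and 53.0 ± 4.23% in the double mutant. These shares are descriptions and were not tested.

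**Figure D3:**
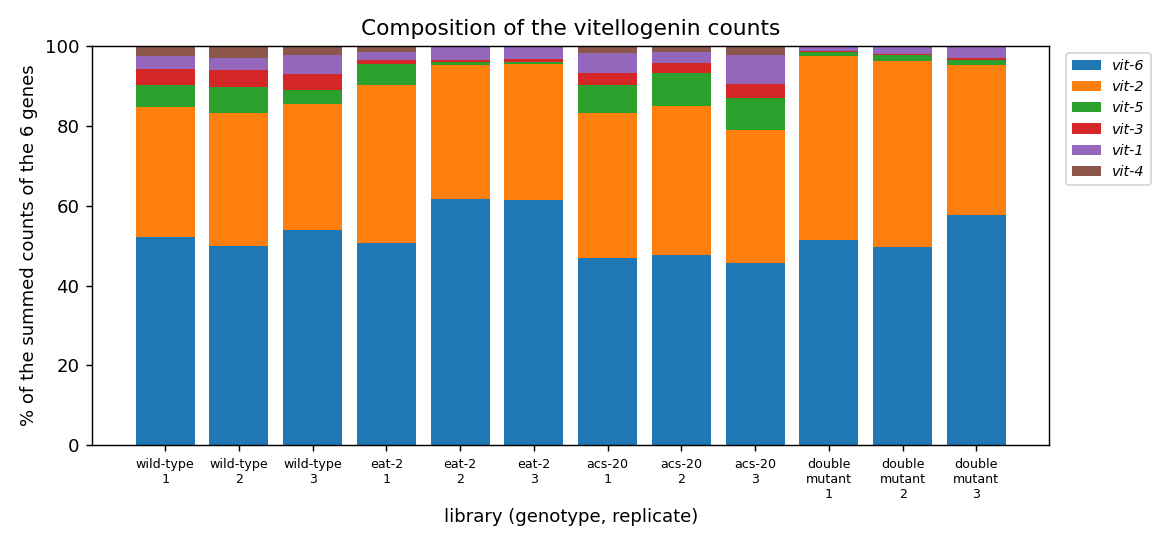
Share of each gene (stacked colours, % of the summed counts of the 6 genes) in the 12 libraries. The pieces of vit-3, vit-4 and vit-5 are visible in wild-type and acs-20 and nearly vanish in the double mutant, where vit-2 and vit-6 together hold 95.2 to 97.4%.

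Because these genes are switched on near the adult moult, genes of the adult cuticle were read beside them. The 10 listed markers were collagen and related cuticle genes such as col-19, rol-1 and bli-1. Their summed level ran from 10201 to 13969 CPM in wild-type, 11136 to 11663 in acs-20, 6428 to 10572 in eat-2 and 4063 to 7202 in the double mutant, and none was without reads in any genotype. In eat-2 against wild-type 0 of 10 were called, beside 7.67% of all tested genes, and their median was log2 -0.65. The list was uneven: col-62 stood at -2.95, col-7 at -2.69 and col-19 at -2.33, and the other markers from -0.67 (col-49) to -0.36 (bli-2). In the double mutant against eat-2, col-62, col-7 and col-19 had values above 0 (1.61, 1.65 and 1.35). The other markers had values below 0 there, from -0.36 (col-49) to -0.87 (bli-1), and 0 of 10 were called, beside 2.11% of all tested genes. In the double mutant 7 of 10 fell against wild-type, beside 8.62% of all tested genes, with a median of -1.10. Examples were col-38 at -1.07 (adjusted p = 0.00665) and rol-1 at -1.12 (adjusted p = 0.00746). Against acs-20 7 of 10 fell in the double mutant, beside 5.31%. There the call was lost in 7 of 18 alternative fits for rol-1, 6 for col-63 and 2 for col-38. The adult collagen gene col-19 stood at 333 ± 237 CPM in wild-type, 179.99 ± 198 in acs-20, 66.3 ± 21.98 in eat-2 and 169.7 ± 98.6 in the double mutant (SD, n = 3), and was not called in any of these comparisons. Of the 9 moulting genes 0 were called in eat-2 against wild-type and 3 fell in the double mutant, among them mlt-10 at log2 -1.05 (adjusted p = 0.00836).

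Library by library, the mean log2 CPM of the cuticle markers, less the wild-type mean, was 0.16, 0.10 and -0.26 in wild-type and -0.71, -0.02 and -0.83 in acs-20. In eat-2 it was -1.29, -0.98 and -1.001, and in the double mutant -0.75, -1.39 and -1.11. The same mean over the 6 vitellogenin genes was 0.26, 0.63 and -0.89 in wild-type and -0.90, 0.61 and -0.83 in acs-20, against -4.38, -6.02 and -6.35 in eat-2 and -4.64, -4.64 and -4.89 in the double mutant. Except for double mutant replicate 1, every library of the low genotypes had a cuticle level below all wild-type and acs-20 libraries.

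**Figure D4:**
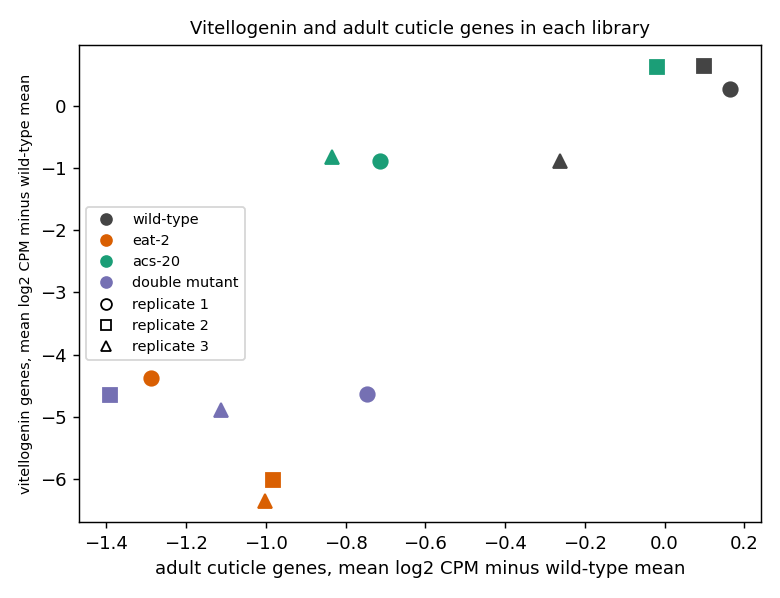
Mean log2 CPM of the 6 vitellogenin genes against that of the 10 adult cuticle genes in the 12 libraries, both less the wild-type mean; colour shows the genotype and shape the replicate. On the vitellogenin axis wild-type and acs-20 libraries lie from -0.90 to 0.63 and eat-2 and double mutant libraries from -6.35 to -4.38; on the cuticle axis they lie from -0.83 to 0.16 and from -1.39 to -0.75.

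With the cuticle level of each library as a covariate in the fit, all 6 vitellogenin genes kept values below 0 in eat-2 against wild-type, and 2 of the 6 were called. These were vit-1 at log2 -4.35 (adjusted p = 0.000805) and vit-3 at -5.14 (adjusted p = 0.00545). The values of the other 4 were -2.58 for vit-2, -4.39 for vit-4, -3.69 for vit-5 and -2.57 for vit-6, at adjusted p from 0.112 to 0.322. In the double mutant 3 of 6 were called with this covariate, vit-1, vit-3 and vit-4, both against wild-type and against acs-20. Between the single mutants 5 of 6 were called, without vit-5 (adjusted p = 0.0798). In these comparisons the number called over all tested genes also fell with the covariate, from 1103 to 310 in eat-2 against wild-type. It fell from 2526 to 1507 in the double mutant against wild-type and from 1863 to 1635 in the double mutant against acs-20. Between the single mutants it fell from 1576 to 973. In the remaining contrasts the number called rose with the covariate. It went from 318 to 398 in acs-20 against wild-type, from 304 to 544 in the double mutant against eat-2 and from 27 to 58 for the interaction. For the double mutant, vit-2 moved to -0.94 against wild-type (adjusted p = 0.593), and vit-6 to -1.27 (adjusted p = 0.301). The covariate differs between the genotypes, and the part of developmental stage in these results was not tested further.

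The yolk gene regulators were the next layer examined, 16 genes drawn from general knowledge of vitellogenin control, with earlier results of these data known. In eat-2 against wild-type 1 fell and 1 rose, beside 3.54% of all tested genes called lower and 4.12% higher, and their median was log2 0.08. The gene that fell was ceh-60, which encodes a homeodomain factor known to promote vitellogenin transcription in the intestine. Its level was 16.2 ± 0.538 CPM in wild-type, 13.5 ± 2.35 in acs-20, 8.01 ± 0.901 in eat-2 and 9.85 ± 2.24 in the double mutant (SD, n = 3). The change was log2 -1.02 in eat-2 (SE 0.183, adjusted p = 0.00376) and -0.72 in the double mutant (SE 0.179, adjusted p = 0.0131), and both calls were lost with the cuticle covariate (adjusted p = 0.305 and 0.544). The call in the double mutant was also lost without double mutant replicate 2 (adjusted p = 0.0561). Against acs-20, ceh-60 was not called in the double mutant (log2 -0.46, adjusted p = 0.116), and the libraries overlapped. It was called in eat-2 against acs-20 (-0.76, adjusted p = 0.0176), a call lost in 4 of 18 alternatives (adjusted p up to 0.187). With the covariate fewer of all tested genes were called in these comparisons too, though not in every contrast, as given above.

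The gene that rose was pqm-1, whose zinc-finger product is known to repress vitellogenin genes. It stood at 37.1, 32.5, 58.5 and 54.5 CPM in the mean of wild-type, acs-20, eat-2 and double mutant libraries. The change was log2 0.66 in eat-2 (SE 0.142, adjusted p = 0.0122) and 0.55 in the double mutant (SE 0.142, adjusted p = 0.0163), and neither was called with the cuticle covariate. The call in eat-2 was also lost without eat-2 replicate 1 (adjusted p = 0.053), and that in the double mutant without wild-type replicate 2 or 3 or double mutant replicate 1 (adjusted p up to 0.0883).

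No other regulator was called in eat-2 against wild-type. The intestinal GATA factor gene elt-2 held 37.1 ± 6.56 CPM in wild-type, 31.5 ± 4.02 in acs-20, 39.9 ± 9.29 in eat-2 and 34.1 ± 5.74 in the double mutant. It was not called in eat-2 against wild-type (log2 0.10, adjusted p = 0.803). The homeodomain partner gene unc-62 stood at 61.9 ± 6.23 CPM in wild-type and 52.2 ± 5.41 in eat-2 (log2 -0.25, adjusted p = 0.302), and the heterochronic factor gene lin-29 at 43.95 ± 5.31 and 46.6 ± 10.03 (adjusted p = 0.878). In the double mutant against wild-type 3 regulators rose and 2 fell, where 17.6% of all tested genes were called. Beside pqm-1 the genes that rose were the insulin receptor gene daf-2 (log2 0.50, adjusted p = 0.00304) and the Smad gene sma-3 (0.86, adjusted p = 0.00592), both lost with the covariate (adjusted p = 0.292 and 0.142). Beside ceh-60 the gene that fell was mab-3 (-0.80, adjusted p = 0.0135), whose product represses vitellogenin genes in males, and its call was lost without wild-type replicate 3 or double mutant replicate 2 (adjusted p up to 0.0686). None of the 16 was called in acs-20 against wild-type, beside 2.21% of all tested genes.

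Downstream of transcription, 9 genes of yolk assembly and uptake were counted. In eat-2 against wild-type 1 of the 9 fell, beside 3.54% of all tested genes, and 0 rose, with a median of log2 -0.06. That gene was rme-1, which acts in the recycling of endocytic receptors, at 315 ± 28.7 CPM in wild-type and 253 ± 9.80 in eat-2 (log2 -0.31, adjusted p = 0.0487). The call was lost in 11 of 18 alternatives, at adjusted p up to 0.182. The yolk receptor gene rme-2, expressed in oocytes, stood at 57.6 ± 23.4 CPM in wild-type, 73.2 ± 33.1 in acs-20, 66.4 ± 28.4 in eat-2 and 75.9 ± 11.9 in the double mutant, and was not called (log2 0.20 in eat-2, adjusted p = 0.832). The gene dsc-4, which encodes the lipid transfer protein that loads yolk lipoproteins, held 346 ± 38.6 CPM in wild-type and 331 ± 73.8 in eat-2 (adjusted p = 0.859).

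Markers of the tissues that make and take up yolk were read in the same way. Of the 15 intestine markers 1 fell in eat-2 against wild-type, again beside 3.54% of all tested genes, and 0 rose, with a median of log2 0.04. It was the gut esterase gene ges-1, at 50.04 ± 6.24 CPM in wild-type and 35.2 ± 3.90 in eat-2 (log2 -0.51, adjusted p = 0.0133). That call was lost without wild-type replicate 1 or 3 or eat-2 replicate 3 and with the covariate (adjusted p up to 0.0877). In the double mutant against wild-type, ges-1 (-0.61, adjusted p = 0.00244) and spl-1 (-0.57, adjusted p = 0.00817) fell, each called in all 18 alternatives. The gene cpr-1 rose there (0.45, adjusted p = 0.0205, lost in 3 of 18) and in acs-20 (0.79, adjusted p = 0.00242). The oocyte and eggshell list (12 genes), the germline list (8 genes) and the sperm list (9 of 10 tested) had 0 called genes in each mutant against wild-type. Their medians in eat-2 against wild-type were log2 0.28, 0.06 and 0.03. Among lists of other tissues, 4 of 7 body wall muscle genes, 1 of 5 pharynx genes and 0 of 6 neuron genes fell in eat-2, beside 3.54% of all tested genes, and 2 of 6 epidermis genes rose, beside 4.12%. The part of these tissue levels in the vitellogenin values was not tested.

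The 8 genes whose profile over the 12 libraries was nearest to the family mean were ranked by mean absolute difference in log2 CPM, among 8709 genes of sufficient level. The nearest was K07H8.16 at 0.81, followed by pud-1.2 at 0.84, C30G12.2 at 1.24, acox-1.2 at 1.74, col-119 at 1.75, ilys-5 at 1.87, gst-10 at 1.90 and txt-4 at 1.94. The 6 members themselves lay 0.60 (vit-1) to 1.05 (vit-4) from their own mean. The gene pud-1.2, which has a near-identical copy so that its reads are uncertain, stood at 74.0 ± 16.9 CPM in wild-type, 28.0 ± 8.10 in acs-20, 2.12 ± 0.159 in eat-2 and 3.94 ± 0.337 in the double mutant. Unlike the vitellogenin genes it was called lower in acs-20 too (log2 -1.39, adjusted p = 0.00102), as was C30G12.2 (-1.80, adjusted p = 7.31e-05). The invertebrate lysozyme gene ilys-5 went from 1605 ± 207 CPM in wild-type to 403 ± 54.7 in eat-2 and 338 ± 56.5 in the double mutant. The glutathione S-transferase gene gst-10 went from 82.0 ± 26.8 to 16.02 ± 0.89 and 19.5 ± 3.14. The cuticle collagen gene col-119 was not called in any comparison (log2 -2.96 in eat-2 against wild-type, adjusted p = 0.106). These genes were chosen for their pattern, so their values are a description.

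Several noncoding RNA genes lie against the vitellogenin genes on the opposite strand, and their counts ran parallel to those of their partners. The gene T27A10.8 lies opposite vit-3, sharing 171 of its 188 bases with the exons of vit-3. It had 198, 251 and 97 counts in wild-type, 76, 204 and 54 in acs-20, 3, 0 and 0 in eat-2 and 2, 3 and 3 in the double mutant. Opposite vit-4, F59D8.3 shares 150 of its 176 bases with vit-4 exons, and its counts were 144, 182 and 42 in wild-type, 41, 145 and 60 in acs-20, 3, 1 and 0 in eat-2 and 1, 1 and 0 in the double mutant. Over the 3 wild-type libraries T27A10.8 had 2.90 counts per base of exon beside 1.85 for vit-3, and F59D8.3 had 2.09 beside 1.19 for vit-4.

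The nearest gene in profile, K07H8.16, adjoins the start of vit-6 on the opposite strand, and its exons do not overlap those of vit-6. It had 699, 813 and 381 counts in wild-type and 36, 14 and 14 in eat-2 (log2 -4.72, SE 0.677, adjusted p = 0.00274). In acs-20 it had 345, 1031 and 231 counts, and in the double mutant 93, 111 and 70. Its highest library in wild-type, eat-2 and acs-20 was the one that was highest for vit-6. The strand setting of the counting is not given in the sources used here. Reads of overlapping partners, T27A10.8 with vit-3 and F59D8.3 with vit-4, therefore cannot be told apart. In all 12 libraries, reads in no annotated feature were nearly as many as the counts in genes. Whether the counts of T27A10.8 and F59D8.3 were reads of vit-3 and vit-4 was not tested. For K07H8.16 and vit-6, which do not overlap, the part of the strand setting was not tested. Beside vit-2 the counts were too low to be compared in this way. The noncoding genes C42D8.16 (opposite strand) and C42D8.17 (same strand) had 0 counts in all 12 libraries. The gene C42D8.9, which shares 11 bases with vit-2 exons, had 1 to 11.

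**Figure D5:**
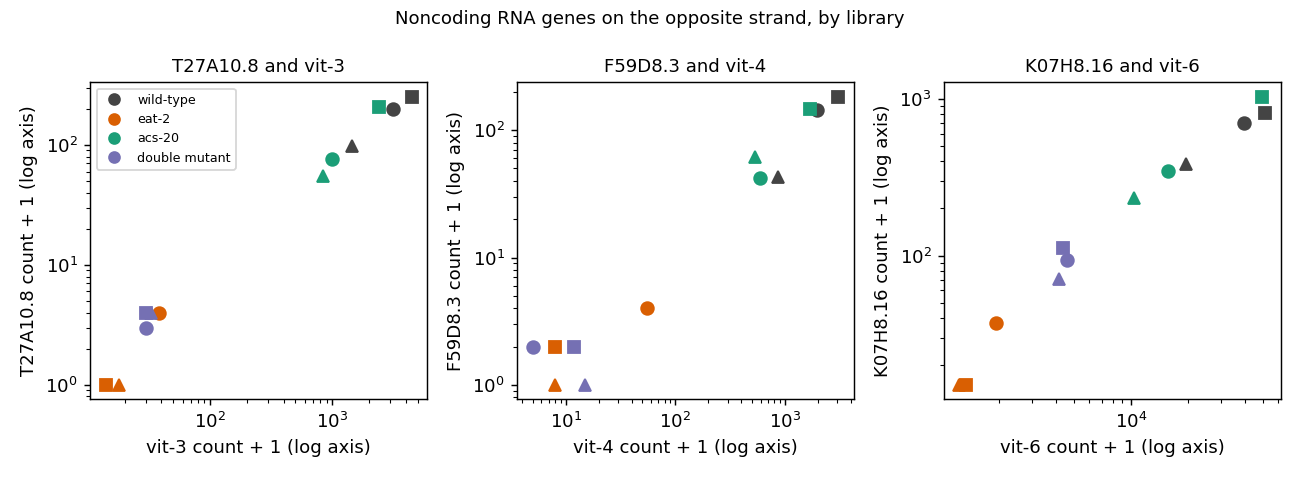
Counts plus 1 (log axes) of T27A10.8 against vit-3, F59D8.3 against vit-4 and K07H8.16 against vit-6 in the 12 libraries, coloured by genotype. In each panel the wild-type and acs-20 libraries lie at the upper right and the eat-2 and double mutant libraries at the lower left, as for K07H8.16 with 231 to 1031 against 14 to 111 counts.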

How the data were processed

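RNA of whole worms was measured in 12 libraries, 3 for each of 4 genotypes. The authors deposited 1 table per library of raw read counts per gene, with no normalization, and with the summary lines of HTSeq. Per the submitters' processing notes the tools were FastQC 0.11.5, TopHat2, HTSeq and DESeq2, with no role named. The build is not given in the sources used here, nor are the annotation release and strand setting used for counting. The summary lines were left out of library sizes: reads in no annotated feature came to 0.975 to 0.983 per count in genes.

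Symbols, exon lengths and gene order came from Ensembl release 115 (WBcel235), which named 43720 of the 46739 IDs, and no coordinates are given. In R 4.3.3 with edgeR 4.0.16, genes were filtered with filterByExpr (minimum count 10, minimum total 15), which left 14390 genes with 99.82 to 99.89% of counts. TMM factors ran from 0.921 to 1.10. A negative binomial model with 4 group means on all 12 libraries (8 residual degrees of freedom, common biological coefficient of variation 0.153) was tested with robust quasi-likelihood tests in 7 contrasts, Benjamini-Hochberg adjusted over all tested genes and called at 0.05. Single-gene adjusted p-values are from these tests unless another tool is named. Intervals are 95%. Log2 CPM used a prior count of 2. The fits were tested on simulated data.

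The alternatives comprised DESeq2 1.42.0, RLE factors, no filter, the compared libraries alone, a replicate block, the adult cuticle covariate, summed paralogs and leaving out each library. Beside the 6 genes, named genes are called members of each gene list (at most 3 per list and contrast by smallest p), a set of always-named genes, and the 8 nearest in profile with an average log2 CPM of at least 3; dsc-4 and the noncoding neighbours were added after their values were seen, as were the alternatives for genes outside the family. The members and lists were chosen with earlier results of these data known. Promoter motifs, protein identity and read mappability were not analysed here.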

Additional observations from a re-analysis of the deposited data

How the results depend on the processing

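In the 4 comparisons with 6 genes called, all 452 alternative values of the vitellogenin genes were below 0, and 33 were no longer called. These values share libraries, and each fit of summed paralogs was entered once per gene in the sum, so they are not independent. As no libraries overlapped in these comparisons, leaving out 1 library could hardly change a sign. With the adult cuticle covariate the count called was 2 in eat-2 against wild-type, 3 in the double mutant against wild-type and 3 against acs-20. Over all tested genes this fit called 310, 1507 and 1635 genes in the same order, in place of 1103, 2526 and 1863. In the double mutant against eat-2 it was 1 with DESeq2 and 3 in the compared groups alone, in place of 0. Over all genes DESeq2 called 542 there and the compared groups alone 366, in place of 304. Leaving out 1 library gave 5 to 6 called in eat-2 against wild-type, 4 to 6 in the double mutant against wild-type, 3 to 6 against acs-20, and 0 in the comparisons with no call. Over all genes such fits called 576 to 1272 in eat-2 against wild-type and 1573 to 2676 in the double mutant against wild-type. In the double mutant against acs-20 they called 919 to 2026. The call of vit-2 in the double mutant against acs-20 was lost in 6 of 12 such fits (adjusted p up to 0.11), with no filter (0.061) and in the compared groups alone (0.0919).

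Values that changed sign were all in comparisons without a call. In acs-20 against wild-type the covariate gave log2 0.54 for vit-2 and 0.30 for vit-6, the sum of vit-3, vit-4 and vit-5 gave -0.26, and leaving out 1 library gave -0.23 to 0.20 for vit-1, -0.98 to 0.26 for vit-2 and -0.69 to 0.78 for vit-5. In the double mutant against eat-2 the sum of vit-3 and vit-4 gave -0.40, the sum of 3 genes 0.016, and leaving out 1 library -0.054 to 0.87 for vit-3, -1.98 to 0.32 for vit-4 and -0.35 to 2.85 for vit-5. For the interaction the sums gave 0.47 and 0.27, leaving out 1 library gave -1.13 to 1.17 for vit-4 and -0.60 to 2.60 for vit-5, and vit-5 was 0.0091 with no filter and 0.031 with the replicate block. The cause was not tested.

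The replicate numbers were not taken to pair the libraries, since only 9 of 18 same-number correlations were over 0.1 (range -0.091 to 0.429). That 8 of 12 libraries correlated best with their own number is a hint from the data, so pairing is unsettled. The block changed no call of the 6 genes in any of the 7 contrasts. Of 1098 alternative values of the other named genes 75 were no longer called and 0 changed sign. Counts of 4 to 54 for vit-4 in the low genotypes, and 3 libraries per genotype, limit the precision.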
